A study of Drosophila melanogaster with 4 samples.

Results

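LTR retrotransposon insertions are copies of mobile elements that lie scattered through the fly genome. The 604 insertions described here were chosen from the 23932 counted features by name and count: their FlyBase symbol names 1 of 45 LTR families, and their counts in the 4 libraries sum to 10 or more. They come from 1139 annotated insertions of these families, among 5416 transposon insertions of all classes, and 44 of the 45 families had at least 1 such insertion, with gypsy3 as the exception. At the edge of the rule, 5 insertions had exactly 10 counts, and 4 that were left out had 9. A symbol such as roo{}339 gives the family before the braces and a number for the copy after them. The family called Max-element in the choice is spelled Max in the annotation.

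The libraries were made from polyA RNA of brains of wandering (WL3) *Drosophila melanogaster* larvae. The genotypes compared were insc-GAL4>orb2RNAi and insc-GAL4>wRNAi, with 2 libraries each and 60 brains, dissected in batches of 20, pooled per library. In both, the driver inscuteable-GAL4 is active in the neuroblast lineage, so the hairpin is not driven in every cell of the brain, and the control hairpin targets the eye color gene *white* (*w*). No strain background or sex is given, and a difference between fly stocks and an effect of the hairpin cannot be told apart. No source says whether the pools of 1 genotype came from separate cultures, so p-values measure only the spread between these pools. *orb2* itself was at 105.3 and 53.6 CPM (counts scaled to a fixed library size) in libraries labelled *orb2* RNAi, against 17.1 and 15.3 CPM in those labelled *white* RNAi. The targeted gene was thus higher under its own label (log2 fold change 2.29, adjusted p = 0.9998 by edgeR's quasi-likelihood test), so libraries are named by their labels throughout and every direction follows the labels. *w* was at 120.6 and 93.8 CPM in libraries labelled *orb2* RNAi, against 110.7 and 184.7 CPM in those labelled *white* RNAi, and the groups overlapped.

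An LTR retrotransposon is flanked by long terminal repeats, direct copies of 1 sequence that carry the start and the end of its transcript. Its internal part encodes Gag, which builds a virus-like particle, and Pol, which holds the protease, reverse transcriptase, RNase H and integrase that turn the RNA into DNA and insert it at a new site. The *copia* and 1731 families belong to the Ty1/copia group, the *roo*, 3S18, diver and Max-element families to the BEL/Pao group, and most of the others to the gypsy group, in which some families carry an envelope gene. In flies small RNAs restrain them: piRNAs bound to Piwi proteins in the gonads, and siRNAs made by Dcr-2 and bound to AGO2 in other tissues. Because copies of a family are nearly identical, short reads often align to several of them, and how such reads were counted is not given in the sources used here. The value of a single copy therefore depends on the counting, and totals per family are given beside it.

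The 4 libraries held between 34610836 and 75412298 counts, of which transposon insertions took 0.782% to 1.01%. Scaled levels are counts divided by library size after TMM normalization, in CPM. Markers of neurons (9 genes) and neuroblasts (6 genes) were detected in all libraries. Of 6 listed gonad genes, nos was not matched, zpg was at 0 in all 4 libraries and vas in 1, while bam, bgcn and tj were above 0 in all 4, and the list summed to 16.9 and 15.3 CPM in libraries labelled *orb2* RNAi against 13.2 and 15.4 CPM in those labelled *white* RNAi. Other tissues moved between libraries: the summed level of 8 muscle genes was 607 and 561 CPM in libraries labelled *orb2* RNAi against 131 and 289.8 CPM in those labelled *white* RNAi. The sum of 6 salivary gland genes was 126.6 and 1305 CPM in those labelled *orb2* RNAi, against 37.1 and 161 CPM in those labelled *white* RNAi. The sum of 5 fat body genes was 479 and 2172 CPM in those labelled *orb2* RNAi, against 4059.9 and 242 CPM in those labelled *white* RNAi. All 8 muscle, 6 salivary gland and 5 fat body genes were above 0 in every library. The muscle sums separated the labels and the other sums did not, and the part of these tissues in the results below was not tested. In bulk RNA, fewer cells of a type and less RNA per cell cannot be told apart.

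The summed level of the 604 insertions differed between the labels by less than the spread between replicates. It was 4832 and 6152 CPM in libraries labelled *orb2* RNAi, against 5325 and 6578 CPM in those labelled *white* RNAi. The means were 5492 ± 934 and 5952 ± 886 CPM (SD, n = 2 each), without separation of the labels (log2 ratio of means -0.12, exact two-sided permutation test p = 0.667, where the smallest p that 2 against 2 allows is 0.333). A single copy, roo{}339, held 1.33% to 27.5% of the sum. Without it, in an alternative chosen after seeing the data, the sums were 4692 and 6071 CPM in libraries labelled *orb2* RNAi against 5015 and 4768 CPM in those labelled *white* RNAi, the log2 ratio was 0.14 and p was 1.0 by the same exact test. The sign of the total thus turned with this copy.

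Most of the signal in CPM, which is not scaled to length, lay on a few families and on long copies. The copia, roo and 3S18 families took 67.2% and 68.4% of the LTR level in libraries labelled *orb2* RNAi and 67.5% and 72.3% in those labelled *white* RNAi. Copies within 5% of the most common full length of their family, 284 of the 604 over 29 families, took 79.6% and 80.9% of it in libraries labelled *orb2* RNAi and 78.9% and 83.6% in those labelled *white* RNAi. The 604 insertions had a median length of 6127.5 bases, against 337 bases for the 535 LTR insertions under the count minimum, of which 435 had no count in any library. The minimum is not scaled to length either, so the choice itself favors long insertions. Levels were low for most copies: the median over insertions was 2.30 CPM, 206 lay under 1 CPM and 36 lay over 50 CPM.

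**Figure D1:**
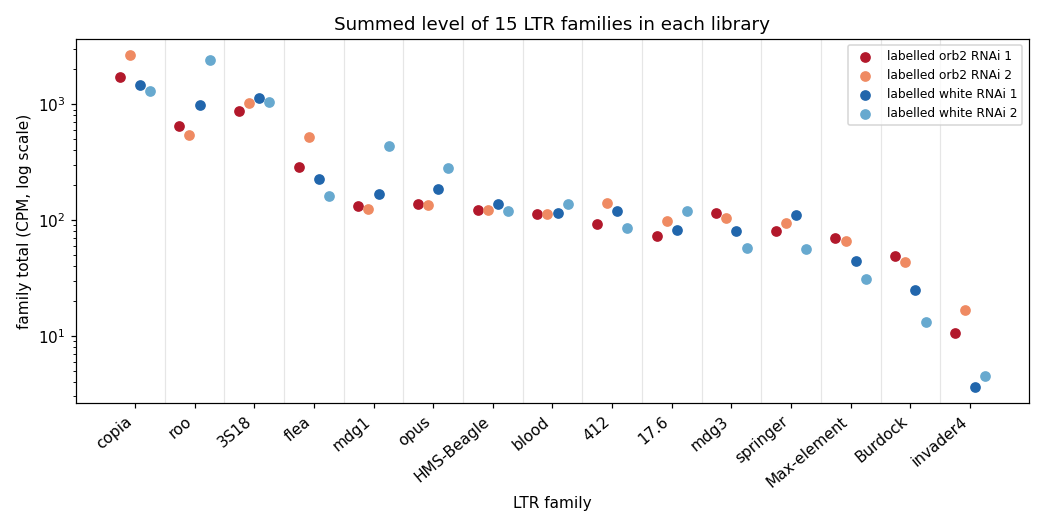
Summed level of 15 LTR families in each of the 4 libraries, in CPM on a log axis, with each point a library (labelled orb2 RNAi in red shades, labelled white RNAi in blue shades). Families run from copia, with 1314 to 2641 CPM, down to invader4, with 3.64 to 16.9 CPM, and 1 library can set a family apart, as white RNAi replicate 2 does for roo.

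No family total passed the call, which asked edgeR's test for both an adjusted p under 0.05 and a log2 fold change beyond 0.5 in either direction, with p-values adjusted after Benjamini and Hochberg over all 11621 genes and families tested. The share called among all of these was 0.0%. Of the 43 LTR families tested, 22 lay above 0 and 21 below 0. At an unadjusted p under 0.05, 6 families were higher and 2 were lower in libraries labelled *orb2* RNAi, beside 3.33% and 0.74% of all 11621 in those directions. Every family had an adjusted p of 0.9995 or more. DESeq2 without shrinkage called 0 of the 43 families and 0.585% of all 11621.

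The *copia* family had the highest total. It was at 1710.2 and 2641 CPM in libraries labelled *orb2* RNAi, against 1475 and 1314 CPM in those labelled *white* RNAi. The labels did not overlap, and replicate 2 labelled *orb2* RNAi was the highest of the 4. The log2 fold change was 0.64 (standard error 0.357, adjusted p = 0.9995 by edgeR), and it was 0.30 without that library. The 23 near full-length copies, 5142 to 5253 bases long, moved together, with log2 fold changes between 0.53 and 0.76. In each library the most abundant copy took no more than 4.97% of the family, and the coefficient of variation of CPM per kb over these copies was 5.54% to 8.51%. The copies thus had almost equal counts wherever they lay. Those with the highest levels were copia{}920 in an intron of Eip63E, at 85.0 and 117 CPM in libraries labelled *orb2* RNAi against 72.2 and 58.2 CPM in those labelled *white* RNAi, copia{}1391 in an intergenic stretch of chromosome 3R, copia{}131 in an intron of the adenylyl cyclase gene rut, and copia{}342 on 2L. The last 3 had log2 fold changes of 0.62, 0.64 and 0.64.

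The *flea* family, of the gypsy group, had a similar profile at a lower level. Its total was 287 and 520.1 CPM in libraries labelled *orb2* RNAi and 228 and 161 CPM in those labelled *white* RNAi. Replicate 2 labelled *orb2* RNAi was again the highest and the groups did not overlap (log2 fold change 1.05, standard error 0.380, unadjusted p = 0.043 and adjusted p = 0.9995 by edgeR). Without that library the log2 fold change was 0.57. All 13 near full-length copies of 5019 to 5029 bases lay above 0, from 0.59 to 1.35, and for 12 of them the labels did not overlap. The labels separated in this direction for 18.5% of all 13082 features. Copies of a family may share reads, so the 13 values are not independent. The library in which *copia* and *flea* were highest was also the one with the highest salivary gland sum, and a link between them was not tested.

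The 3S18 family was nearly level across the libraries. It stood at 883 and 1031 CPM in libraries labelled *orb2* RNAi, against 1130.4 and 1041 CPM in those labelled *white* RNAi, so the labels did not overlap but lay close together. The log2 fold change was -0.19 (standard error 0.262, adjusted p = 0.9995 by edgeR). Per kb its 4 near full-length copies were more abundant than those of *copia* and *flea*, with means of 24.5 and 28.6 CPM per kb in libraries labelled *orb2* RNAi and 31.1 and 29.0 in those labelled *white* RNAi. The same measure was 13.0 and 19.9 CPM per kb in libraries labelled *orb2* RNAi against 11.2 and 9.99 in those labelled *white* RNAi for *copia*, and 3.54 and 6.72 against 2.86 and 2.01 for *flea*. Of the 12 insertions with the highest CPM, 7 were copies of 3S18, 4 of *copia* and 1 of *roo*. The leading copy, 3S18{}853 in an intron of GEFmeso on 2R, was at 167 and 191 CPM in libraries labelled *orb2* RNAi against 210 and 212 CPM in those labelled *white* RNAi. The copies 3S18{}35, 3S18{}4, 3S18{}1090, 3S18{}3955, 3S18{}3954 and 3S18{}5563 had log2 fold changes between -0.20 and -0.13. The last 3 of these are partial copies that lie close together on 3L.

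**Figure D2:**
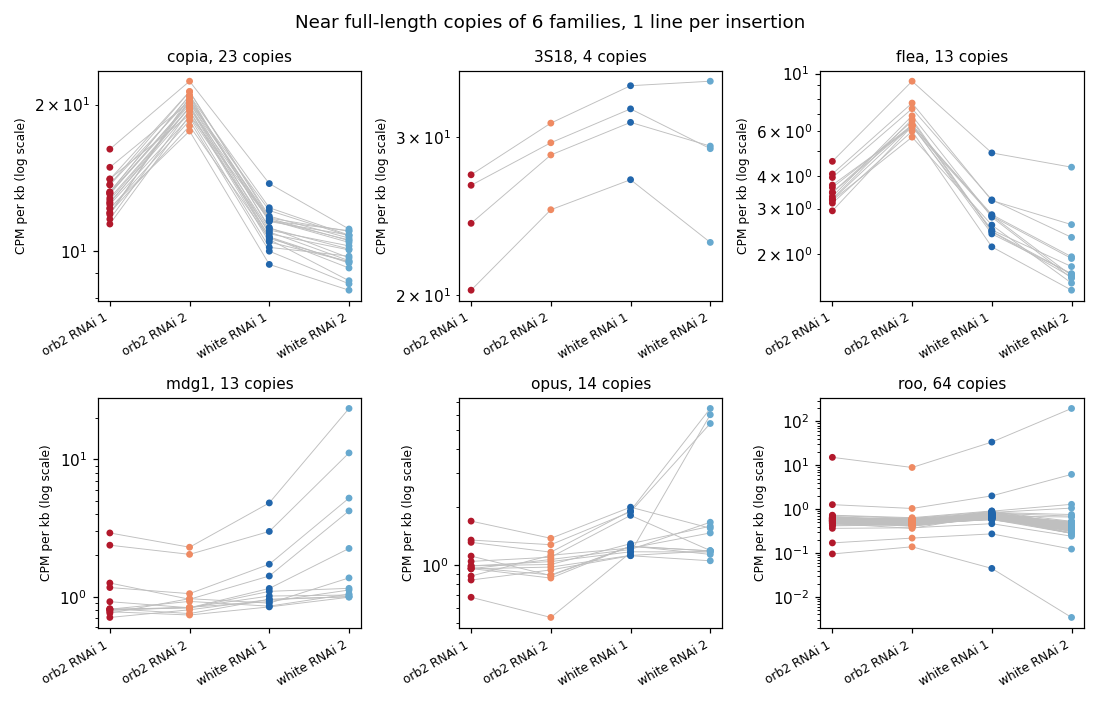
Level per kb of each near full-length copy in 6 families, on log axes, with 1 line per insertion across the libraries labelled orb2 RNAi 1 and 2 and white RNAi 1 and 2. Copies of copia and 3S18 run nearly in parallel. Those of flea spread more in white RNAi replicate 2, with a coefficient of variation of 38.3% there against 12.6% in orb2 RNAi replicate 1. A few copies of mdg1, opus and roo rise away from their families in white RNAi replicate 2.

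The *roo* family, with 121 insertions the largest, was dominated by 1 copy. Its total was 652 and 538 CPM in libraries labelled *orb2* RNAi, against 988 and 2402 CPM in those labelled *white* RNAi. The log2 fold change was -1.51 (standard error 0.498, unadjusted p = 0.032 and adjusted p = 0.9995 by edgeR), and it was -0.75 without replicate 2 labelled *white* RNAi and -0.39 without roo{}339. The insertion roo{}339 lies on 2L from 10946999 to 10956155 (BDGP6.54), in an intron of dpr2, a gene of the Dpr family of cell surface proteins, and runs on the opposite strand. It was counted 10606 and 4679 times in libraries labelled *orb2* RNAi, at 139.3 and 81.8 CPM, and 19398 and 59350 times in those labelled *white* RNAi, at 310.1 and 1809.9 CPM. Replicate 2 labelled *white* RNAi stood 5.84 times above the next library, and roo{}339 made up 75.3% of the family there, against 15.2% to 31.4% in the other 3. The log2 fold change was -3.26 (standard error 0.935, adjusted p = 0.9998 by edgeR), and DESeq2 without shrinkage called it with an adjusted p of 0.00178, the lowest of a range up to 1.0 over the alternatives. Without replicate 2 labelled *white* RNAi the log2 fold change was -1.49. The host gene dpr2 was at 6.64 and 8.06 CPM in libraries labelled *orb2* RNAi, against 7.72 and 13.2 CPM in those labelled *white* RNAi.

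The other 120 roo insertions had a different profile. Their summed level was 513 and 456 CPM in libraries labelled *orb2* RNAi, and 678 and 592 CPM in those labelled *white* RNAi. Their median was 4.69 and 4.16 CPM in libraries labelled *orb2* RNAi and 6.02 and 3.17 CPM in those labelled *white* RNAi. Replicate 1 labelled *white* RNAi was the highest library for 102 of the 120 and replicate 2 for 11. Among these 11 were roo{}944, roo{}1055 and roo{}319, described next. The near full-length copy roo{}850, chosen after its values were seen, went the other way, with 65 and 71 counts in libraries labelled *orb2* RNAi against 25 and 1 counts in those labelled *white* RNAi (log2 fold change 2.24, adjusted p = 0.9998 by edgeR). It overlaps exons of grh, a transcription factor gene expressed in neuroblasts, over 1237 of its 8922 bases, and grh was at 142.7 and 99.7 CPM in libraries labelled *orb2* RNAi against 89.4 and 59.1 CPM in those labelled *white* RNAi.

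A set of insertions from several families shared the profile of roo{}339. Of the 460 insertions with 100 or more summed counts, 30 stood over 1.5 times higher in replicate 2 labelled *white* RNAi than in any other library. These 30, which fall in 15 families with 5 each in roo and mdg1 and 4 in opus, summed to 307 and 237 CPM in libraries labelled *orb2* RNAi and to 557 and 2648 CPM in those labelled *white* RNAi. Their peak in replicate 2 labelled *white* RNAi follows from how they were chosen. Of these sums, roo{}339 alone gave 139.3 and 81.8 CPM in libraries labelled *orb2* RNAi and 310.1 and 1809.9 CPM in those labelled *white* RNAi. Only 5 of the 30 stood over 4 times above the next library. For 16 of the 30 the order was the same as for roo{}339, with replicate 2 and then replicate 1 labelled *white* RNAi highest and replicate 2 labelled *orb2* RNAi lowest. The profile was not particular to LTR insertions: 6.52% of the 460 met this measure, while 15.8% of 691 other transposon insertions and 11.7% of all 11696 features with as many counts did. Most LTR insertions went the other way, since 275 of the 460 were lowest in that library, a share of 59.8%, where the share over all features was 40.5%. That library is the shallowest of the 4. Its summed level was the highest for 5 hemocyte genes, at 397 and 299 CPM in libraries labelled *orb2* RNAi against 267 and 532 CPM in those labelled *white* RNAi, and for 6 glia genes, at 718 and 1038 CPM against 659 and 1173 CPM. It was the lowest for 9 neuron genes, at 3476 and 2999.7 CPM against 4238 and 2387 CPM. The lists were not uniform. Of the hemocyte genes, only PPO1 and He were highest in that library. Hml and NimC1 were highest in replicate 2 labelled *orb2* RNAi, and PPO2 in replicate 1 of that label. Of the glia genes, repo and moody were not highest in replicate 2 labelled *white* RNAi, and fne and Gad1 of the neuron genes were not lowest there. The part of these lists in the profile was not tested.

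The members of this set with the smallest p are long copies. The insertion mdg1{}831, a copy of a gypsy-group element in an intron of hbs, a gene that encodes a cell adhesion protein, was at 21.5 and 16.9 CPM in libraries labelled *orb2* RNAi against 35.5 and 172.9 CPM in those labelled *white* RNAi. roo{}944, between genes on 3L, was at 18.7 and 14.0 CPM against 33.9 and 154.9 CPM in the same order. Both were lowest in libraries labelled *orb2* RNAi, with log2 fold changes of -2.44 and -2.53. Their adjusted p was 0.9998 by edgeR's test, and DESeq2 without shrinkage called both, with adjusted p of 0.0436 and 0.0251. Over the alternatives the adjusted p ran from 0.0377 to 1.0 for mdg1{}831 and from 0.0217 to 1.0 for roo{}944. Without replicate 2 labelled *white* RNAi the log2 fold changes were -0.89 and -1.05. roo{}1055 in an intron of Papss, the enzyme that makes the sulfate donor, was at 11.6 and 9.49 CPM in libraries labelled *orb2* RNAi, against 18.4 and 56.8 CPM in those labelled *white* RNAi. opus{}1149 on 3L was at 5.09 and 4.004 CPM against 8.70 and 45.2 CPM, and roo{}319, in an intron of the signalling gene Wnt6, at 6.07 and 5.42 CPM against 9.81 and 19.8 CPM. The labels did not overlap for these 3 either, and their log2 fold changes were -1.83, -2.56 and -1.36. rover{}243 on the X chromosome had the highest ratio of its highest to its next library, 12.4, with 20 and 20 counts in libraries labelled *orb2* RNAi and 35 and 227 counts in those labelled *white* RNAi.

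**Figure D3:**
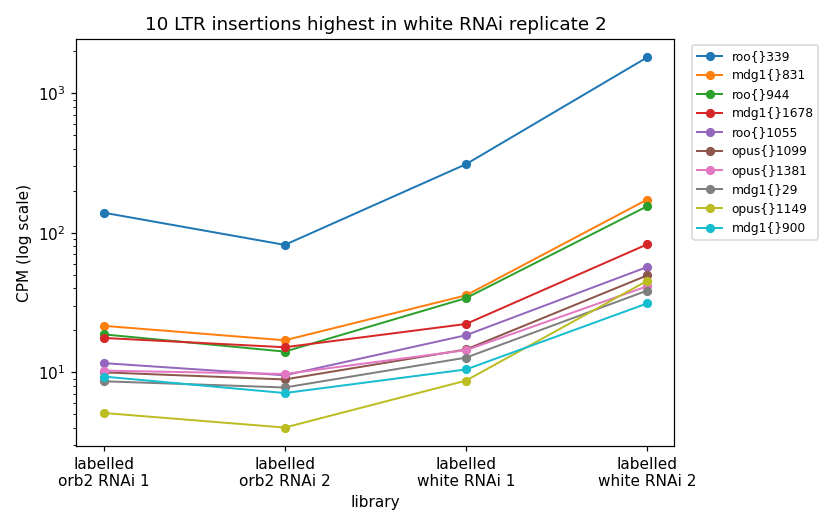
Level in each library (horizontal), in CPM on a log axis, of the 10 most abundant LTR insertions that stood over 1.5 times higher in the library labelled white RNAi 2 than in any other. All 10 lines have their highest point there, and roo{}339 is at 139.3 and 81.8 CPM under the orb2 RNAi label and at 310.1 and 1809.9 CPM under the white RNAi label.

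The totals of mdg1 and opus carried this pattern. mdg1 was at 133.1 and 125 CPM in libraries labelled *orb2* RNAi, against 168 and 434 CPM in those labelled *white* RNAi (log2 fold change -1.22, standard error 0.476, adjusted p = 0.9995 by edgeR). opus was at 139 and 135 CPM against 185 and 279 CPM (log2 fold change -0.76, standard error 0.262, unadjusted p = 0.0369 and adjusted p = 0.9995). The labels did not overlap in either family. Without replicate 2 labelled *white* RNAi the log2 fold changes were -0.40 for mdg1 and -0.45 for opus, and in mdg1 the single copy mdg1{}831 made up 39.9% of the family in that library, against 13.6% to 21.1% in the others.

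Other families of high level changed little or unevenly. HMS-Beagle was at 123 and 122 CPM in libraries labelled *orb2* RNAi, against 138 and 119.8 CPM in those labelled *white* RNAi. blood was at 113.1 and 113.5 CPM against 114.6 and 139 CPM, 412 at 92.0 and 139.4 CPM against 121 and 85.7 CPM, and 17.6 at 73.5 and 99.0 CPM against 81.5 and 119 CPM. Their log2 fold changes lay between -0.22 and 0.16. springer was at 80.5 and 93.7 CPM in libraries labelled *orb2* RNAi, against 111 and 56.7 CPM in those labelled *white* RNAi, and mdg3 at 116 and 104 CPM against 80.9 and 56.9 CPM. Of these 6 families, the labels separated in mdg3 with the libraries labelled *orb2* RNAi higher (log2 fold change 0.67, standard error 0.262, adjusted p = 0.9995), and in blood with those labelled *orb2* RNAi slightly lower. The diver and Stalker2 families, chosen after their values were seen, stood apart by library. All 8 copies of diver were highest in replicate 1 labelled *white* RNAi, where the family was at 74.6 CPM against 21.9 to 30.1 CPM in the other 3 libraries. That library also had the highest fat body sum, 4059.9 CPM, of which Fbp1 alone gave 2809 CPM. Lsp1beta of the same list was highest in replicate 2 labelled *orb2* RNAi, and a link to diver was not tested. Stalker2 was lowest in replicate 1 labelled *orb2* RNAi, at 29.5 CPM, against 75.1 CPM in replicate 2 of that label and 105.9 and 109 CPM in libraries labelled *white* RNAi.

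The families with the smallest p in the other direction were of lower level. invader4 was at 10.6 and 16.9 CPM in libraries labelled *orb2* RNAi, against 3.64 and 4.54 CPM in those labelled *white* RNAi (log2 fold change 1.75, standard error 0.427, unadjusted p = 0.0109 by edgeR). Burdock was at 48.7 and 43.6 CPM against 24.999 and 13.3 CPM (log2 fold change 1.26, standard error 0.377, unadjusted p = 0.0227 by edgeR). Max-element was at 70.1 and 66.5 CPM against 44.8 and 31.3 CPM (log2 fold change 0.84, standard error 0.264, unadjusted p = 0.0272 by edgeR). The labels did not overlap in any of the 3 families, and none passed the adjustment. Max-element rested on a pair of copies, Max{}5599 and Max{}5659, which summed to 64.0 and 60.2 CPM in libraries labelled *orb2* RNAi and to 39.0 and 27.2 CPM in those labelled *white* RNAi. Max{}5599, on 3L, was at 31.7 and 29.95 CPM in libraries labelled *orb2* RNAi against 19.1 and 13.4 CPM in those labelled *white* RNAi, with a log2 fold change of 0.92.

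Of the families of lower level, Transpac and gypsy9 complete the 6 with an unadjusted p under 0.05 that were higher in libraries labelled *orb2* RNAi. Transpac was at 28.5 and 33.8 CPM there, against 20.4 and 14.6 CPM in libraries labelled *white* RNAi (log2 fold change 0.82, standard error 0.287, adjusted p = 0.9995 by edgeR). gypsy9 was at 0.223 and 0.892 CPM against 0 in both libraries labelled *white* RNAi, so no fitted fold is given for it. The 297 family, with 48 insertions, was at 65.1 and 68.4 CPM in libraries labelled *orb2* RNAi, against 59.5 and 38.6 CPM in those labelled *white* RNAi, and 1731 was at 17.2 and 21.4 CPM against 21.5 and 21.3 CPM. The labels separated in Transpac, gypsy9 and 297 and overlapped in 1731.

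In invader4 a single fragment carried most of the difference. invader4{}1669 is 736 bases long and lies on 2R from 25258153 to 25258888 (BDGP6.54), 2835 bases from the gene CG9380. It was counted 478 and 402 times in libraries labelled *orb2* RNAi and 0 and 1 times in those labelled *white* RNAi. The fragment was thus counted at 6.28 and 7.03 CPM under 1 label and hardly at all under the other. The ratio of the summed counts, scaled to library size, was 629 with an exact 95% interval from 113 to 24882 that covers counting error only. The fragment reached the count minimum and passed edgeR's filter only through libraries labelled *orb2* RNAi. Neither the interval nor the p-values below cover this or its choice by small p. It had the smallest unadjusted p of all LTR insertions, 0.00128, with an adjusted p of 0.9998 by edgeR, and DESeq2 without shrinkage gave an adjusted p of 2.09e-06. Over 11 alternatives the adjusted p ran from 2.09e-06 to 0.9998 and the fitted log2 fold change stayed above 0. A further 6 copies of 569 bases stand in tandem near the end of 3R, from 32073394 to 32078882, with starts spaced 984 bases apart. Their sum was 1.39 and 1.96 CPM in libraries labelled *orb2* RNAi and 0.352 and 0.671 CPM in those labelled *white* RNAi, and the labels did not overlap for any of the 6, with log2 fold changes from 1.29 to 2.18. This group was chosen after its values were seen, and its copies may share reads, so they are not independent. Over all 13082 features the labels separated in this direction for 18.5%.

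Burdock, a gypsy-group family, had a median log2 fold change of 1.97 over shorter copies and 0.79 over near full-length ones. The 8 insertions of 2379 to 4168 bases summed to 25.6 and 20.6 CPM in libraries labelled *orb2* RNAi, against 5.72 and 5.61 CPM in those labelled *white* RNAi. The 7 near full-length insertions of 6403 to 6414 bases summed to 22.9 and 22.6 CPM against 19.1 and 7.65 CPM. The labels separated for all 8 shorter copies, with log2 fold changes from 1.28 to 2.69, and for 5 of the 7 longer ones, whose log2 fold changes ran from 0.40 to 1.42. They separated in this direction for 18.5% of all 13082 features, and copies that may share reads are not independent. The remaining Burdock insertion is a fragment of 107 bases. The ratio of the shorter to the longer sum was 1.12 and 0.912 in libraries labelled *orb2* RNAi and 0.300 and 0.733 in those labelled *white* RNAi. This ratio was chosen after its values were seen, and its exact permutation test gave p = 0.333, the smallest that 2 against 2 allows. A split by length was not particular to Burdock. In Stalker2 the median log2 fold change was 0.75 over 5 shorter copies of 1 kb or more and -1.12 over 5 near full-length ones. Burdock{}74, in an intron of pigs on the X chromosome, was at 3.76 and 3.18 CPM in libraries labelled *orb2* RNAi against 0.639 and 0.488 CPM in those labelled *white* RNAi (log2 fold change 2.61, adjusted p = 0.9998 by edgeR). Burdock{}304, between genes on 2L, was at 3.73 and 2.94 CPM against 0.464 and 0.579 CPM (log2 fold change 2.67, adjusted p = 0.9998).

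**Figure D4:**
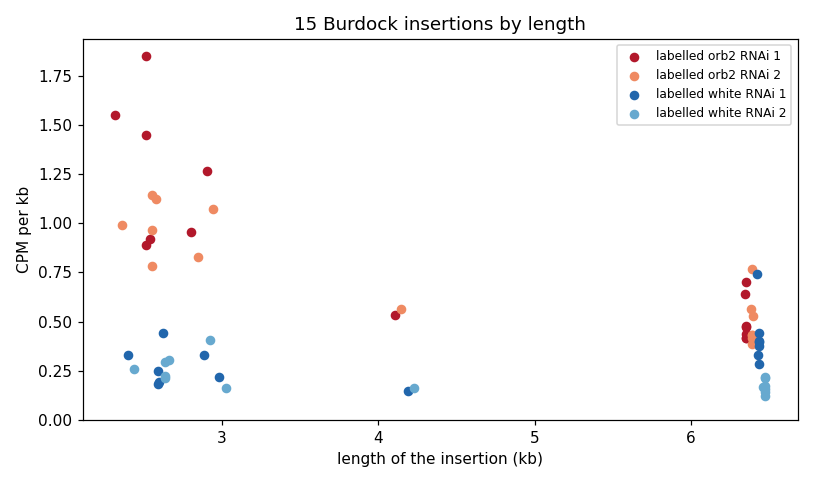
Level per kb of 15 Burdock insertions against their length in kb, with a point per library (labelled orb2 RNAi in red shades, labelled white RNAi in blue shades) set slightly apart sideways. Copies of 2.38 to 4.17 kb separate by label, while copies near 6.4 kb overlap more, with 19.1 and 7.65 CPM in all in libraries labelled white RNAi.

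Tested one by one, none of the 527 insertions that passed edgeR's filter was called, as was none of the 13082 features (0.0%). Of these 527, 275 lay above 0 and 252 below, with a median log2 fold change of 0.03, against 0.02 over all features and -0.06 over 1047 other transposon insertions. The median was 0.49 without replicate 1 and -0.16 without replicate 2 labelled *white* RNAi. At an unadjusted p under 0.05, 25 insertions (4.74%) were higher and 10 (1.90%) were lower in libraries labelled *orb2* RNAi, beside 3.68% and 0.894% of all features. Of these 25, 10 had no count in either library labelled *white* RNAi. The labels did not overlap for 140 insertions (26.6%) that were higher and 94 (17.8%) that were lower, beside 18.5% and 11.7% of all features. These shares lay above the background. The higher group includes the 10 insertions without counts in libraries labelled *white* RNAi, which passed the filter only through those labelled *orb2* RNAi. Copies of a family may share reads, so the 527 values are not independent. DESeq2 without shrinkage called 4 of the insertions, those named above, and 0.657% of all features. Counts of calls with a library left out are not given, since 1 label then rests on a single library.

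**Figure D5:**
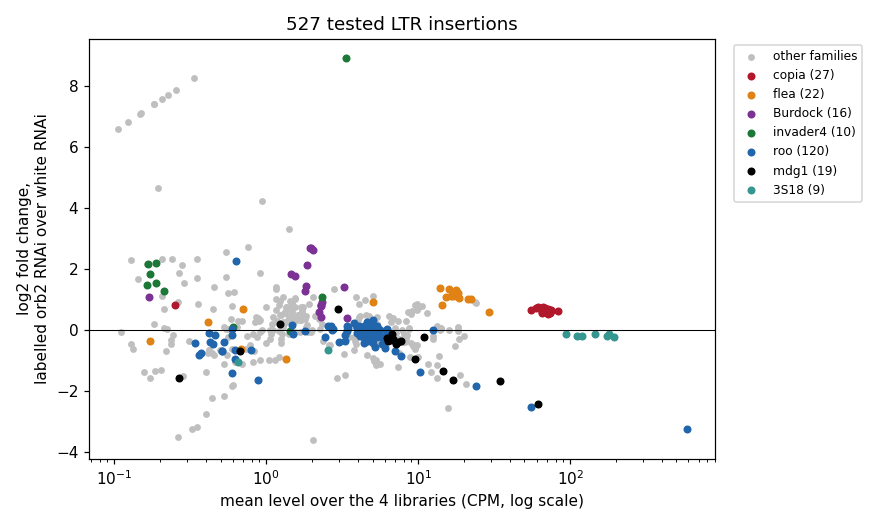
Log2 fold change (labelled orb2 RNAi over labelled white RNAi) against mean level in CPM on a log axis, for 527 tested LTR insertions, with 7 families in color. Copies of copia form a tight group from 0.53 to 0.81, while those of flea run from -0.96 to 1.36 and those of 3S18 from -1.04 to -0.13. The copy roo{}339 lies alone at the right at -3.26, and the points above 6 at low level have 0 or 1 counts in libraries labelled white RNAi.

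Some insertions were counted under 1 label only. Neither library labelled *white* RNAi had a count for 43 insertions, or 7.12%, where the share over all 15437 features with 10 or more counts was 9.85%. Neither library labelled *orb2* RNAi had one for 16, or 2.65%, where the share over all features was 1.68%. Of the 4 libraries the deepest is labelled *orb2* RNAi and the shallowest *white* RNAi, and 28 of the 43 had counts in both libraries labelled *orb2* RNAi. gypsy8{}3747 on 2R was counted 33 and 52 times in libraries labelled *orb2* RNAi and 0 times in those labelled *white* RNAi. Scaled to library size, the ratio was 20.3 with a floor of 3 counts in place of 0 over the group, the highest of the 43. gypsy12{}3713 on 2R was counted 44 and 25 times against 0, a ratio of 16.4 in the same way. All 43 reached the count minimum through libraries labelled *orb2* RNAi alone. These ratios leave out the error of the higher counts and the spread between replicates. Of the 16 insertions without counts in libraries labelled *orb2* RNAi, none was counted in both libraries labelled *white* RNAi, and 14 were counted in replicate 1 alone. The highest of these, 3S18{}177 on the X chromosome, had 76 counts there and 0 in the other 3 libraries. A fragment in roo had the same imbalance between replicates: roo{}3250, 429 bases in an intron of Stlk, was counted 24 and 31 times in libraries labelled *orb2* RNAi and 167 and 0 times in those labelled *white* RNAi. invader1{}4851 on 2L was counted 41 and 172 times against 11 and 0. Most insertions of this kind were short, with a median of 699 bases for the 43 and 1167.5 bases for the 16. Of the 43, 20 (46.5%) lay on 2R below 6 Mb, toward the centromere. The same held for 3 of the 16 (18.8%) and 66 of all 604 insertions (10.9%). Toward other centromeres, 7 of the 43 lay on 3L above 22 Mb, 3 on 2L above 21 Mb and 3 on X above 21 Mb. Those windows held 3, 5 and 3 of the 16, so such places were common in both groups. The share of all 604 in those windows is not given here.

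The insertions were also set beside the genes that hold them. Of the 604 insertions, 284 lay in introns, 258 between genes and 62 overlapped an exon, and 139 were on 2R, 134 on 3L, 117 on the X, 104 on 2L, 96 on 3R and 14 on the small chromosome 4. Of the 346 within a gene, 203 ran on the strand opposite to it and 143 on the same strand. The sources name different library kits, of which 1 keeps strand, and whether counting used strand is not given, so reads of an insertion and of its host cannot be told apart by strand here. For 295 insertions both the insertion and its host gene were tested, and the log2 fold changes had the same sign in 144 of them (48.8%). Across these insertions, which share libraries and families, Spearman's rho between insertion and host was -0.05. It was -0.11 for 99 in introns on the same strand, -0.01 for 150 in introns on the opposite strand, and -0.00 and -0.19 for 25 and 21 that overlap exons on the same and the opposite strand. As an example, copia{}131 had a log2 fold change of 0.64, and its host rut was at 166.6 and 139 CPM in libraries labelled *orb2* RNAi and 209 and 87.5 CPM in those labelled *white* RNAi.

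A list of 51 entries held mainly genes of the small RNA pathways and of chromatin. It also held the piRNA locus flam, some transcription factors such as E2f1, and bcd, a gene not expected to be expressed in larval brains. Of the 51 entries, 49 were matched, 47 were tested and 0 were called by edgeR's test or by DESeq2. At an unadjusted p under 0.05 in edgeR's test there were 0, beside 3.68% (higher) and 0.894% (lower) of all features. The median log2 fold change was 0.06, where that over all features was 0.02. Of the siRNA pathway, AGO2, which slices targets, was at 395 and 398 CPM in libraries labelled *orb2* RNAi against 371 and 305 CPM in those labelled *white* RNAi. Dcr-2, which makes the siRNAs, was at 179 and 158 CPM against 209.9 and 139 CPM. Of the piRNA pathway, piwi, which silences transcription in gonads, was at 2.13 and 2.83 CPM against 2.32 and 0.915 CPM. aub, which slices transposon RNA in the germline, was at 5.55 and 5.32 CPM against 6.28 and 9.51 CPM. Of the chromatin factors, egg, an H3K9 methyltransferase, was at 108 and 104 CPM in libraries labelled *orb2* RNAi against 97.8 and 90.5 CPM in those labelled *white* RNAi. Among the 47 tested, the labels did not overlap for 10 that were higher (21.3%), bcd among them, and for 7 that were lower (14.9%) in libraries labelled *orb2* RNAi, shares near the 18.5% and 11.7% of all features. The papi gene, a Tudor-domain factor of piRNA processing, had the smallest unadjusted p of the list, 0.118 by edgeR's test, at 41.5 and 55.8 CPM against 37.7 and 31.5 CPM.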

How the data were processed

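The files deposited by the authors hold whole-number counts for each gene or transposon insertion in 4 libraries, 1 file per library. Trim Galore, HISAT2 and featureCounts were the authors' tools for trimming, alignment and counting. Per the paper's methods the libraries came from a stranded TruSeq mRNA kit, while the labels name TruseqV2. The handling of strand and of reads with several alignments is not given in the sources used here. The deposited counts were not normalized.

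Counts were analysed with edgeR 4.0.16 in R 4.3.3: TMM scaling, filterByExpr, and the quasi-likelihood test without a replicate block on all features, with calls where the adjusted p was under 0.05 and the log2 fold change beyond 0.5 in either direction. Family totals summed all insertions of a family and were fitted in the same way. DESeq2 1.42.0, 2 normalizations, 2 filters, a minimum of 50 counts, leaving out insertions that overlap exons, a replicate block and leaving out each library were alternatives. The libraries held 34.6 to 75.4 M counts. The interval covers counting error only, and the floors only that of a count of 0.

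Positions are those of Ensembl release 115 (build BDGP6.54). No sequences are shown. Members and lists were chosen with earlier results of these data known. Insertions were named if among the 12 with the highest CPM, called, among the 6 per direction with the smallest p, or among the 6 with the highest ratio of their highest to their next library, and families if among the 12 highest, called, or among 3 per direction. Of the other names, Max{}5659, 3S18{}177, gypsy9, Transpac, 297, 1731 and the diver and Stalker2 families were chosen after their values were seen. Symbols of 2 listed genes, nbr and Hop, were not matched, and nos was not matched among the markers.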

Additional observations from a re-analysis of the deposited data

How the results depend on the processing

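The call of 0 family totals held in every alternative. The number of LTR insertions called was 4 with DESeq2 without shrinkage, beside 0.657% of all features. It was 1 with a replicate block, for which the share over all features is not given. The log2 ratio of the LTR total was 0.14 without roo{}339, an alternative chosen after seeing the data, and ran from -0.29 to 0.06 when each library was left out. The median log2 fold change of tested insertions ran from -0.16 to 0.49 when each library was left out, and the value of 0.49 came without replicate 1 labelled *white* RNAi. The cause was not tested.

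Whether same-numbered replicates were prepared together is not stated in the sources used here. Over 2 pairs the correlation of their deviations was 0.228, which cannot settle this. The replicate block called invader4{}1669 (adjusted p = 0.00197 by edgeR), which passed the filter only through libraries labelled *orb2* RNAi. The block also turned roo{}3250 to a log2 fold change of 0.67. Of 104 values of named insertions with a library left out, 3 reversed, and of 60 such values of named families, 6 reversed. With each library left out in turn, log2 fold changes ran from -0.29 to 0.0103 for 3S18{}1090, from -0.34 to 0.11 for 3S18{}5563, from -2.64 to 7.57 for roo{}3250, from -0.16 to 0.45 for the 412 family, from -0.37 to 0.64 for springer, from -0.18 to 0.0527 for HMS-Beagle and from -0.44 to 0.0652 for 17.6. A lone library is assumed to vary like the other group. The 2 libraries per label and the unstated handling of shared reads limit all values of single copies.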

Other observations

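Of 9 LTR families outside the 45 listed ones, chosen after their values were seen, the labels overlapped in 6, with log2 fold changes from -0.69 to 0.05. They separated in 3, with libraries labelled *orb2* RNAi higher in Dm88 and Idefix and lower in Tabor. Over all 13082 features tested, the labels separated for 18.5% that were higher and 11.7% that were lower. Tabor, a family of the gypsy group, was at 28.8 and 23.7 CPM in libraries labelled *orb2* RNAi, against 50.6 and 236 CPM in those labelled *white* RNAi (log2 fold change -2.44, adjusted p = 0.9995 by edgeR and 0.0335 by DESeq2 without shrinkage). Its copy Tabor{}77 was at 14.0 and 12.8 CPM against 28.7 and 152 CPM, the order of libraries seen for roo{}339. Dm88, of the copia group, was at 21.98 and 37.2 CPM in libraries labelled *orb2* RNAi, against 19.1 and 16.4 CPM in those labelled *white* RNAi, highest in replicate 2 labelled *orb2* RNAi as *copia* was. Among insertions that are not LTR elements, Rt1b{}990, Doc{}1407 and jockey{}118, copies of LINE-like elements, were 5.69, 5.26 and 6.15 times higher in replicate 2 labelled *white* RNAi than in any other library.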
